A study of Rattus norvegicus with 113 samples.

Results

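The nuclear genes for the mitochondrial respiratory chain were followed in rat brain after traumatic brain injury (TBI). Members were every gene whose RefSeq symbol fits the names of the complex I subunits (Ndufa, Ndufb, Ndufc, Ndufs and Ndufv, each with a number), the complex II subunits (Sdha to Sdhd), the complex III subunits (Uqcr), the cytochrome c oxidase subunits of complex IV numbered Cox5 to Cox8 (the Cox4 isoforms are named differently and are counted with the other mitochondrial genes) and the ATP synthase subunits of complex V (Atp5). Of 138 RefSeq symbols that fit, 93 are protein coding, 44 are pseudogenes and 1 is a long non-coding RNA. Probes named 73 of the protein-coding genes, out of 16581 named genes on the larger of the 2 array designs used, and 72 out of 15637 on the smaller design, which has no probe for Ndufa7. On the larger design the members comprised 32 genes of complex I, 4 of complex II, 8 of complex III, 13 of complex IV and 16 of complex V. Complexes were assigned by gene symbol alone, and whether each product is a subunit of that complex was not checked. No named probe was found for Ndufa3, Ndufa8, Ndufb1, Ndufc1, Ndufs6, Cox7a1, Cox7b2, Atp5mc3, Atp5mpl and 11 paralogs with names such as Uqcr11l1. Each gene was read from its brightest probe, and no choice of member used a difference between groups.

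The study injured the right side of the brain of male Sprague-Dawley rats by parasagittal fluid percussion, in which a pulse of fluid strikes the exposed dura. The labels call the injury moderate and the methods severe. Agilent 1-colour arrays measured RNA from the hippocampus and from a small piece of cortex near the injury. Rats were adult, with no age in the labels, and were killed at 24 hours, 2 weeks, 3 months, 6 months or 1 year. Sham rats had the same anaesthesia and surgery with no fluid pulse, TBI rats had the surgery and the pulse, and naive rats were neither anaesthetised nor handled. There were 113 arrays in 29 groups, each array from 1 rat and 1 tissue. By the paper's account both tissues came from the same rats, though the labels do not say which arrays share a rat. Comparisons between tissues were fitted with the arrays as independent, except with the replicate block. Of these groups 27 held 4 rats, and the hippocampus at 24 hours held 2 sham and 3 TBI rats and no naive rats. The tissue is a mixture of cells, so that fewer cells of a type and less RNA per cell cannot be told apart.

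The respiratory chain of the inner mitochondrial membrane passes electrons from NADH through complex I, or from succinate through complex II, to ubiquinone, on through complex III and cytochrome c, and finally to oxygen at complex IV. The proton gradient built on the way drives ATP synthesis by complex V. Neurons depend on this pathway for most of their ATP, and subunits encoded in the nucleus are assembled there with a few encoded by mitochondrial DNA, for which no probe was named here. Several subunits of complex IV exist as isoforms restricted to certain tissues. Cox6a2 and Cox8b are known from heart and skeletal muscle, and Cox6b2 from testis.

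Promoter sequences help to show how the members resemble each other apart from their levels. RefSeq promoter windows on the rat assembly GRCr8, from 250 bases before the annotated start to 50 bases after it, were found for 66 members and compared with all 33469 windows. Members with no window given included Atp5pd, Cox6a1, Cox6c, Ndufb9, Uqcr11 and Uqcrb. Exact letters were searched on both strands. The palindromic motif of the factor NRF-1, with any base at its 1 free position, stood in 18.2% of the members' windows (12) and in 4.25% of all windows. The ETS letters CCGGAAG stood in 30.3% of members (20) against 8.75% of all. The YY1 letters AAGATGGC stood in 19.7% of members (13) against 3.17% of all, and the letters TATAAA in 9.09% of members (6) against 14.2% of all. By complex, the NRF-1 letters were found in 6 of 30 windows of complex I, 1 of 4 of complex II, 1 of 6 of complex III, 0 of 11 of complex IV and 4 of 15 of complex V. The ERR letters TCAAGGTCA were found in 1 member, and the motif of MEF2 factors, with any bases in its centre, in 2 members, Cox6a2 and Cox5b (3.03%, against 3.84% of all windows). A match of letters is a description of the window and shows no binding.

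The windows of the genes that carry most of the results are printed, Uqcrc1 for the differences between sham and naive hippocampus, Cox6a2 for the difference between tissues and Cox7c for its differences between TBI and sham and between sham and naive rats. Uqcrc1 (core protein of complex III) lies at chr8:118467973-118468272 on the plus strand, Cox6a2 at chr1:192219667-192219966 on the minus strand and Cox7c at chr2:18579121-18579420 on the minus strand. Each is written 5′ to 3′ in the direction of the gene. Capitals mark the NRF-1 letters followed by the YY1 letters in Uqcrc1 and the MEF2 letters in Cox6a2. The Cox7c window held none of the letters searched.
Uqcrc1: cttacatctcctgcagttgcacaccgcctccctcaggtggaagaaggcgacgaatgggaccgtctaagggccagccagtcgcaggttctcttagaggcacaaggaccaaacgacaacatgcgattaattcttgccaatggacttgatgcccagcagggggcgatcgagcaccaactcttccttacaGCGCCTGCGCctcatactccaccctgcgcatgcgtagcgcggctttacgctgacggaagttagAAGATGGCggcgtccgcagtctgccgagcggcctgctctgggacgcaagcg
Cox6a2: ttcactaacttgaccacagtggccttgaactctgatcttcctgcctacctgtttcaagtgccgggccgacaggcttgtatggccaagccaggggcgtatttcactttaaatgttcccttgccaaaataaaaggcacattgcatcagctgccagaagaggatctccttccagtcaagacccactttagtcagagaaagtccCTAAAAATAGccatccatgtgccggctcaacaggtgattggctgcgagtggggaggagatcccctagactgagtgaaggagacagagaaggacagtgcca
Cox7c: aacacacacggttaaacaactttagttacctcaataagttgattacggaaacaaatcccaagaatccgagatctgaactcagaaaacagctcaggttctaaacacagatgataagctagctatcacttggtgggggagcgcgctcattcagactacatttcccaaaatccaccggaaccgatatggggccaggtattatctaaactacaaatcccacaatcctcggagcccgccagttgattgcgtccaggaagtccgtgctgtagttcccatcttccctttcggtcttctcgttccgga

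The chain genes were among the brightest probes in every group and moved together from array to array. Levels are log2 of the processed signal divided by the median of the array's probes, unless the 75th percentile is named. The median over all members, called the chain median below, lay between 6.91 and 9.29 on 112 arrays, with a median of 8.57 and an SD of 0.294, and stood above 96.9% to 98.6% of the probes on every array. Scaled to the 75th percentile, the SD between arrays was 0.198, with chain medians from 4.27 to 5.35. The remaining array, cortex sham at 2 weeks, replicate 3, had a chain median of 3.16 (75th percentile scaling 2.36), and 93.0% of its probes stood above background against 41.3% to 72.5% elsewhere. Results of its group are therefore given with and without it. Within a group, the median member of the larger design had an SD of 0.239, which became 0.093 once each array's chain median was subtracted. By complex this remaining SD was 0.0897 for complex I, 0.112 for II, 0.116 for III, 0.111 for IV and 0.0870 for V.

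**Figure D1:**
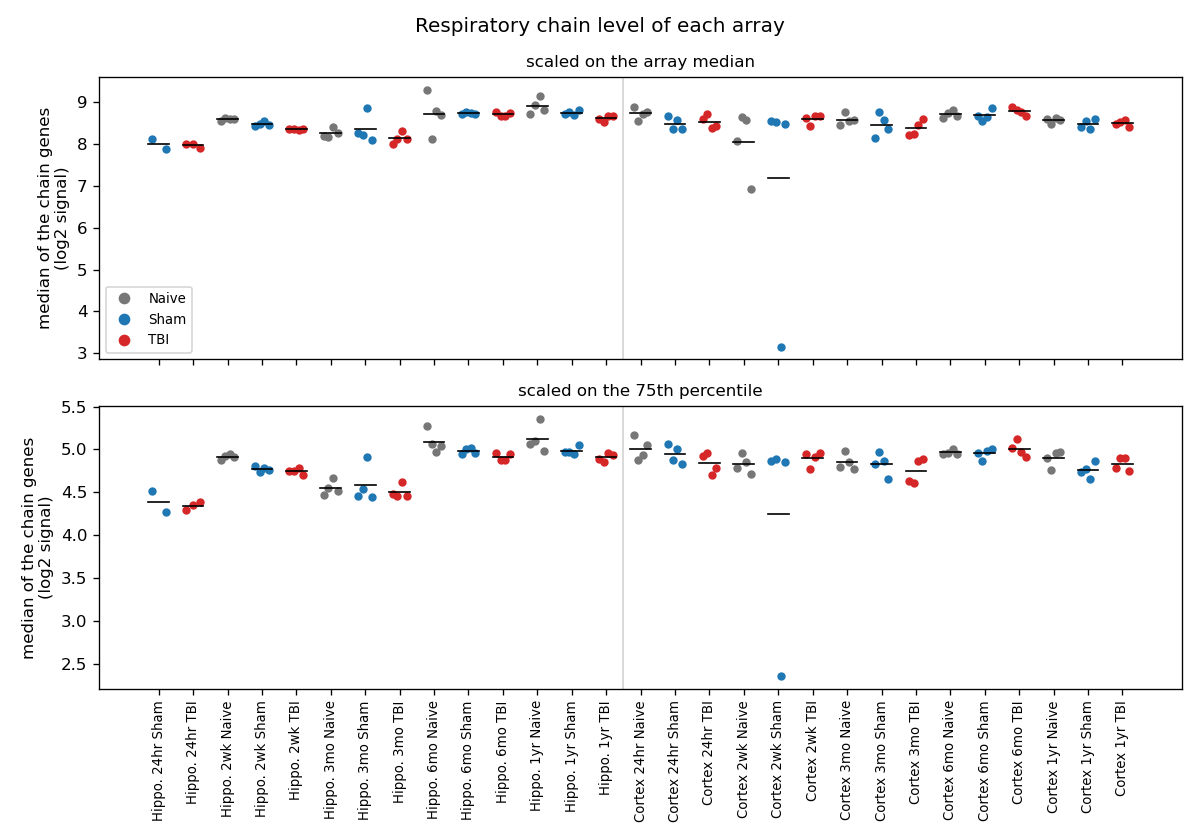
Chain median of each array (log2, vertical axis) by group, under median scaling in the upper panel and 75th percentile scaling in the lower panel. Each point is 1 array and each line a group mean. Group means lie from 7.97 to 8.90 apart from cortex sham at 2 weeks (7.18), where 1 array stands at 3.16.

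By group, the chain median averaged 8.59 ± 0.03 (SD, n = 4 here and for the others) at 2 weeks, 8.72 ± 0.48 at 6 months and 8.90 ± 0.18 at 1 year in the naive hippocampus. The naive cortex averaged 8.73 ± 0.14 at 24 hours and 8.05 ± 0.80 at 2 weeks, then 8.58 ± 0.12 (3 months), 8.71 ± 0.09 (6 months) and 8.57 ± 0.06 (1 year). The wide spread of the naive cortex at 2 weeks came from replicate 4, at 6.91. The smaller design served only the hippocampus at 24 hours and 3 months, and its lower means (7.97 to 8.35) rest on other probes, so they were not compared with those of other intervals. Probes differ in how well they bind, and levels were not ranked between genes.

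Most members were measured far above background. On the larger design 71 of 73 members, and on the smaller design 67 of 72, were above background on every array. Cox8c, an isoform of the testis, was not well above background and was not tested. Of the genes with several probes, 6 of 18 on the larger design and 5 of 14 on the smaller had probes more than 2 log2 units apart. For Uqcrq, a small subunit of complex III, the larger design carried probes with mean levels of 9.56 and 0.47, and the smaller design carried only the dim one. Cox7c, a small subunit of complex IV, had a single dim probe, above background on 44 of 59 cortex arrays, 29 of 36 hippocampus arrays of the larger design and 11 of 17 of the smaller.

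The first comparison asked whether chain genes differed between injured and sham rats at each interval. Of the 69 to 72 members tested per comparison, none was called between TBI and sham in 9 of 10 comparisons. There 0% to 1.9% of all probes were called. In the hippocampus at 24 hours 3 members fell, beside 8.02% of all probes lower. The members called were Cox7c, Uqcrq and Cox6b2. None of the 22 listed core and catalytic subunits was among them, but so few calls do not set those subunits apart. A difference was called at an adjusted p under 0.05 over all probes tested.

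In the hippocampus at 24 hours, Cox7c had levels of 2.81 and 1.56 in the sham rats and -0.86, 0.10 and -0.47 in the TBI rats. The dim Uqcrq probe read 1.02 and 1.05 in sham rats against -0.28, 0.19 and -0.06 in TBI rats. Both probes were above background in 2 of 2 sham rats and 2 of 3 TBI rats, so they entered the test only through the sham rats, the group where they are high, and their differences rest partly on a reading that was not well above background. Cox6b2 read 5.82 and 5.79 in sham rats against 4.96, 4.90 and 4.81 in TBI rats. For all 3 genes every TBI rat lay below both sham rats, which adds no support because the genes were picked as called lower. Cox7c fell by 2.60 on the log2 scale (SE 0.43, 95% interval -3.63 to -1.56, adjusted p = 0.0157). Uqcrq fell by 1.08 (SE 0.18, adjusted p = 0.0151) and Cox6b2 fell by 0.91 (SE 0.13, adjusted p = 0.0115). The adjusted p-values under 75th percentile scaling were 0.0233, 0.0208 and 0.00872. Across the alternatives and each replicate left out, the difference of Cox7c ran from -3.22 to -0.83. That of Uqcrq ran from -1.20 to -0.57 and that of Cox6b2 from -0.95 to -0.77. With no filter on dim probes 0 members were called. These were 3 of 71 members tested, and 8.02% of all probes tested were called lower in this comparison and 5.65% higher. At an unadjusted p under 0.05, 8.45% of members passed, against 31.4% of all probes.

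Ndufa11, a membrane-arm subunit of complex I, read 7.05 and 6.82 in the sham and 7.69, 7.55 and 7.38 in the TBI hippocampus at 24 hours. These groups did not overlap, and the difference of 0.60 was called under 75th percentile scaling (adjusted p = 0.036, beside 7.07% of all probes higher and 9.24% lower) but not under median scaling (adjusted p = 0.059). Relative to the chain median it was also called (0.63, adjusted p = 0.0461), beside 4.91% of all probes higher and 5.72% lower. Cox6a2 read 2.64 and 2.95 in sham and 3.62, 3.46 and 4.73 in TBI rats, with no overlap and an adjusted p of 0.105. Ndufa11 and Cox6a2 had the largest rises of their complexes here, so their separation adds no support. Sdhc differed by -0.43 (95% interval -0.79 to -0.06, adjusted p = 0.115) and Cox8b by -0.60 (adjusted p = 0.393), neither of them called. The median difference was 0.01 in complex I, 0.00 in II, -0.02 in III, -0.16 in IV and -0.08 in V, beside -0.02 over all probes tested. For 40 of the 71 members the 95% interval stayed within a 1.4-fold change either way. Sham and TBI arrays sat on separate slides here, and injury cannot be told apart from slide. With replicate 1 of the sham rats left out no member was called, and with replicate 2 left out 1 was. The summed markers of microglia and macrophages were higher in the same TBI rats (9.38 to 9.97 against 8.83 to 9.11, 2 of 9 markers called higher), and their part in these values was not tested.

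**Figure D2:**
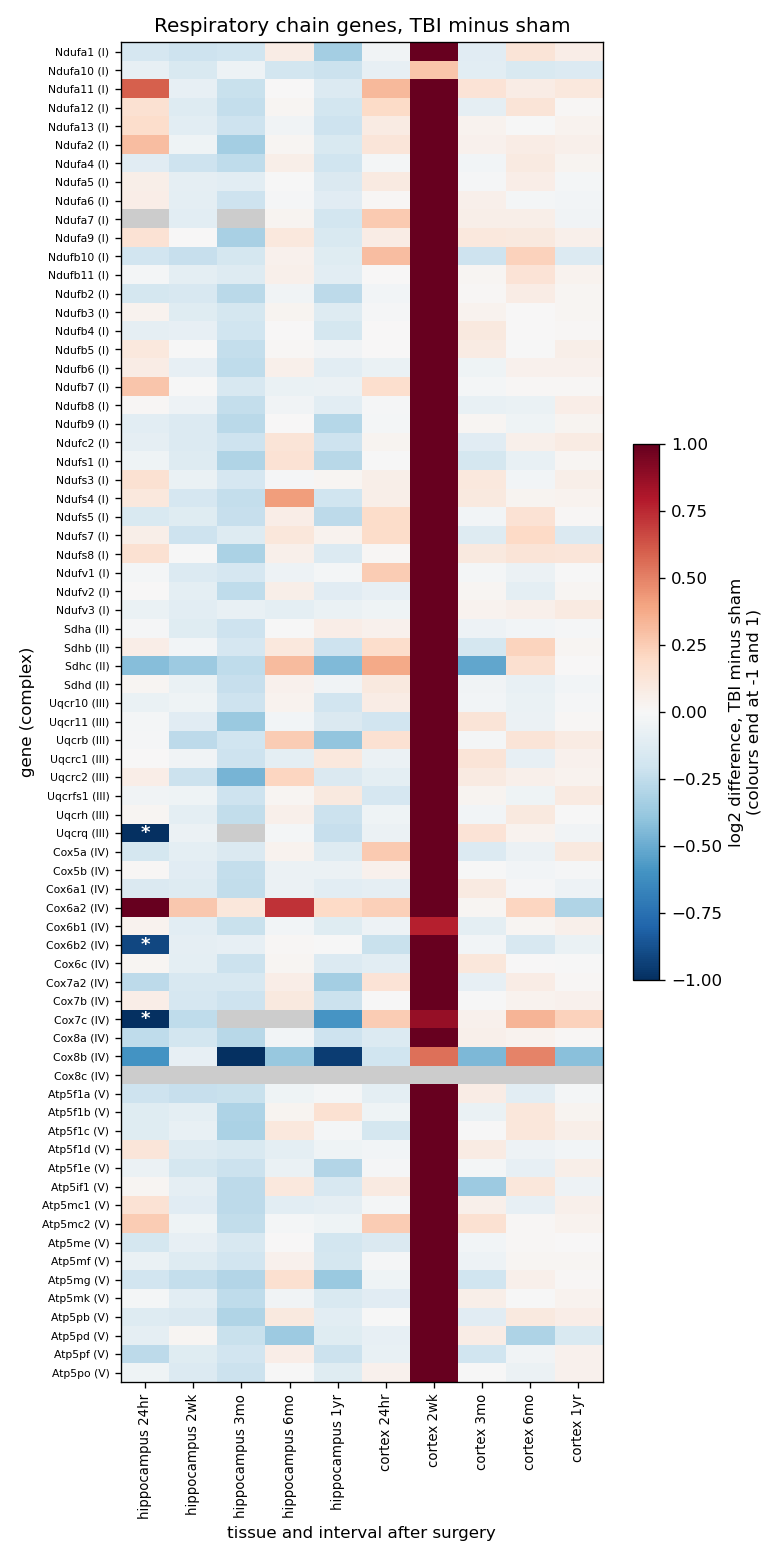
Difference between TBI and sham (log2, colour, ends at -1 and 1) for 72 of the chain genes in rows, ordered by complex, in the 10 comparisons in columns. Grey marks genes not tested and an asterisk an adjusted p under 0.05, which only 3 genes in the hippocampus at 24 hours carry. The column of cortex at 2 weeks contains the array with a chain median of 3.16.

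At 2 weeks in the hippocampus no member was called under either scaling, beside 1.9% of all probes called (1.75% under 75th percentile scaling). Members had a median difference of -0.11 under median scaling and -0.01 under 75th percentile scaling, and all probes tested had -0.11 and -0.02. The smallest adjusted p was 0.0832, for Uqcrb, a small subunit of complex III, which read 7.77, 7.88, 8.002 and 7.88 in sham and 7.68, 7.64, 7.52 and 7.62 in TBI rats. The groups of Uqcrb did not overlap and differed by -0.26 (95% interval -0.43 to -0.10). Uqcrb was picked for its low adjusted p, so this separation adds no support. Sdhc, a membrane anchor of complex II, differed by -0.36 (95% interval -0.67 to -0.06, adjusted p = 0.14). For 68 of 72 members the interval lay within 1.4-fold. In the same rats 7 of 9 microglia and macrophage markers were called higher, and their part in the members' values was not tested.

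At 3 months in the hippocampus the members' median difference was -0.22 (75th percentile scaling -0.09), below the -0.12 (0.02) of all probes. None of the 69 members was called, beside 0.0134% of all probes. The median depended on single rats and ran from -0.30 to -0.06 with each replicate left out. The chain medians of the sham rats spread from 8.10 to 8.85, and those of the TBI rats from 7.99 to 8.30. At an unadjusted p under 0.05, 8.7% of members and 4.65% of all probes passed. In every other comparison of TBI with sham the members' share lay below that of all probes. Uqcrc2, the other core protein of complex III, read 7.05, 7.16, 7.40 and 6.95 in sham and 6.49, 6.77, 6.88 and 6.56 in TBI rats. These values did not overlap (difference -0.47, 95% interval -0.76 to -0.17) but had an adjusted p of 0.87. Uqcrc2 had the largest fall in complex III here, so its separation adds no support. The difference of Cox8b was -1.63, also not called, and is taken up with the choroid plexus markers. Only 10 of 69 intervals lay within 1.4-fold, so that smaller changes were not detectable at this precision.

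At 6 months in the hippocampus the median difference was 0.02 (75th percentile scaling -0.02) with 0 of 71 called beside 0.0134% of all probes. Its most positive value was that of Cox6a2, which read 2.30, 5.22, 2.73 and 4.08 in the TBI rats (difference 0.72, 95% interval -0.26 to 1.69). The rats at 5.22 and 4.08 had summed cortex markers of 5.91 and 5.47, and the TBI group spanned 4.99 to 5.91 against 4.34 to 5.09 in the sham group. The part of these markers was not tested. At 1 year the members' median was -0.14 (75th percentile scaling -0.10) beside -0.06 (-0.01) for all probes, with 0 of 72 called beside 0% of all probes. Atp5mg, a membrane subunit of complex V, read 9.24, 9.24, 9.15 and 9.21 in sham and 8.75, 8.80, 9.06 and 8.74 in TBI rats. Ndufa1 of complex I read 9.04, 9.14, 9.03 and 9.14 in sham and 8.65, 8.64, 8.95 and 8.75 in TBI rats. Both differed without overlap, by -0.37 and -0.34, with adjusted p-values of 0.22 and 0.23. They were picked as the largest falls of their complexes, so the lack of overlap adds no support.

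For the cortex at 24 hours the members' median difference was 0.00 while all probes had 0.12, and under 75th percentile scaling the values were -0.14 and -0.02. None of 72 members was called, beside 0.29% of all probes. Sdhc read 5.63, 6.07, 6.26 and 5.91 in sham and 6.30, 6.49, 6.26 and 6.32 in TBI rats, which touch at 6.26 (difference 0.38, adjusted p = 0.13).

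In the cortex at 2 weeks the members' median difference was 1.36 (75th percentile scaling 0.60) and that of all probes 0.95 (0.19), with 0 of 72 called beside 0.00848% of all probes, and the median 95% interval reached 2.22 to either side. Without replicate 3 of the sham rats the median was 0.04 (75th percentile scaling -0.01), the interval reached 0.76 to either side and again 0 members were called, while 2.12% of all probes were called higher and 0.0339% lower. At 3 months the median was -0.01, at 6 months 0.02 and at 1 year 0.02, with 0 of 72 called each time, beside 0%, 0.0805% and 0% of all probes. Intervals lay within 1.4-fold for 47, 68 and 69 of the 72 members. The lowest value among complexes I to III was that of Sdhc at 3 months, which read 5.98, 6.37, 6.16 and 6.44 in sham and 5.58, 5.77, 5.88 and 5.66 in TBI rats (difference -0.52, 95% interval -0.91 to -0.12, adjusted p = 1). Its groups did not overlap, and both lay on 1 slide. Sdhc was picked as the lowest value, so this separation adds no support.

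The methods of the study took a fold of at least 1.4 with an unadjusted p under 0.05. By that rule 2 members were higher and 3 lower in the hippocampus at 24 hours (Cox6a2 and Ndufa11, and the 3 named above), beside 11.2% and 13.6% of all probes. Single members were lower in the hippocampus at 3 months (Cox8b, beside 1.31% of all probes) and 1 year (Cox7c, beside 3.26%) and in the cortex at 3 months (Sdhc, beside 1.53%), and none passed in the other 6 comparisons.

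The difference between the injury's effects in hippocampus and cortex was tested on probes shared by both designs. At 24 hours 3 of 67 members were called, all lower in the hippocampus (beside 3.23% of all probes lower and 0.263% higher). Among them Cox7c differed by -2.85 (adjusted p = 0.00489) and Sdhc by -0.80 (adjusted p = 0.0364). Across the alternatives and each replicate left out, the value of Cox7c ran from -3.47 to -0.87. In the hippocampus Sdhc read 6.53 and 6.30 in sham against 5.87, 6.08 and 6.01 in TBI rats, the opposite order to the cortex. With 75th percentile scaling only Cox7c was called (-2.73, adjusted p = 0.0101, beside 2% of all probes lower and 0.331% higher), with an adjusted p of 0.115 for Sdhc. The cortex readings of Cox7c overlapped between sham (-0.98, -0.50, 0.01 and -0.45) and TBI rats (0.06, -0.06, -0.03 and -0.89). The sham and TBI groups of this test at 24 hours lay on different slides in both tissues, so that injury and slide cannot be told apart. At the later intervals 0 members were called, beside 0% of all probes at 2 weeks, 3 months and 1 year and 0.004% at 6 months.

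Sham rats were compared with naive rats, which share the sham arrays with the comparisons above, to measure the difference that goes with surgery and anaesthesia. In the hippocampus at 2 weeks 16 of 72 members fell and 1, Cox7c, rose, beside 3.23% of all probes lower and 5.4% higher. Of the 72, 5 that fell belong to complex I (Ndufa2, Ndufa6, Ndufa13, Ndufb5 and Ndufb8), 3 to complex III (Uqcrc1, Uqcr10 and Uqcrq), 3 to complex IV (Cox5b, Cox6c and Cox8b), 5 to complex V (Atp5f1d, Atp5mc1, Atp5mc2, Atp5me and Atp5po) and none to complex II. The difference was -0.68 for Cox8b and lay between -0.35 and -0.20 for the other 15, with adjusted p-values from 0.0133 to 0.0487. In all 16 the 4 sham rats lay below the 4 naive rats. These genes were picked as called lower, so their separation adds no support, and its share over all probes was not counted.

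Uqcrc1 read 8.23, 8.22, 8.32 and 8.25 in naive and 7.97, 8.005, 7.98 and 7.89 in sham hippocampus at 2 weeks. Cox6c, a small subunit of complex IV, read 10.14, 10.08, 10.23 and 10.29 against 9.70, 9.94, 9.89 and 9.82. Atp5mc2, one of the genes for the c-ring of ATP synthase, read 9.58, 9.60, 9.49 and 9.58 against 9.16, 9.26, 9.34 and 9.26. All 4 sham rats lay below all 4 naive rats for each gene. Uqcrc1 fell by 0.30 (SE 0.06, adjusted p = 0.0133), Cox6c fell by 0.35 (SE 0.07, adjusted p = 0.0148) and Atp5mc2 fell by 0.31 (adjusted p = 0.0135). The TBI rats of the same interval, on another slide than the naive rats, read 7.87, 8.02, 7.86 and 7.95 for Uqcrc1. Under 75th percentile scaling 32 members fell and 1 rose, beside 6.58% and 5.82% of all probes. The count of 17 members called was 5 after quantile normalization, 4 after normexp background correction, 1 with no filter and 5 to 10 with any 1 rat left out. The naive arrays lay on 1 slide and the sham arrays on another, so slide and surgery cannot be told apart here. The cytosolic ribosomal protein genes showed a like count, with 16 of 80 lower and 1 higher (75th percentile scaling 44 and 1). Summed blood markers were lower in the sham rats too (8.16 to 8.54 against 9.02 to 9.35, 3 of 3 called), and their part was not tested.

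Relative to the chain median, 4 members rose and 5 fell in this comparison, beside 15.7% and 1.26% of all probes. Among those that rose were Cox7c (1.65), Sdhc (0.50) and Ndufs5 (0.24), and those that fell were Cox8b (-0.57), Cox6c (-0.24), Atp5mc2 (-0.19), Uqcrc1 (-0.18) and Ndufa13 (-0.16).

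Cox7c rose in sham against naive rats in 3 comparisons, and in each it entered the test only through the sham rats, 4 of 4 of which were above background. In the hippocampus at 2 weeks it read -0.25, -0.74, -0.57 and 0.05 in naive rats, 3 of them above background, and 0.98, 1.14, 1.21 and 1.28 in sham rats (difference 1.53, SE 0.22, adjusted p = 0.00215). At 1 year it read -0.74, -0.37, -0.27 and -0.63 in naive rats, 2 of them above background, and 1.41, 1.47, 1.48 and 1.34 in sham rats (1.93, SE 0.15, adjusted p = 9.27e-05). In the cortex at 1 year it read -1.71, -2.39, -0.90 and -1.78 in naive rats, 1 of them above background, and 0.03, 0.52, 0.01 and 0.78 in sham rats (2.03, SE 0.27, adjusted p = 0.00112). In all 3 the groups did not overlap, which adds no support because they were picked as called. The naive values are partly not well above background, and the groups lay on different slides. The size of the difference depended on the processing. Across the alternatives and each replicate left out it ran from 0.84 to 1.68, from 1.07 to 2.08 and from 0.67 to 2.30 in the order above, called throughout. The TBI rats that shared the sham rats' slide read 1.28, 0.86, 0.25 and 1.20 in the hippocampus at 2 weeks, 0.54, 0.74, 1.28 and 0.80 in the hippocampus at 1 year and 0.54, 0.54, 0.60 and 0.56 in the cortex at 1 year, above the naive rats each time and not called against the sham rats.

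Across the 15 slides the mean Cox7c level ran from -1.08 to 2.18, the highest being the slide that held only the sham hippocampus at 24 hours. The slides that held the sham rats of the hippocampus at 2 weeks and 1 year followed at 1.03 and 1.13. Within tissue, slides accounted for 66.1% of the variance of Cox7c, more than for any other member (41.7% for Ndufv2 and 40.8% for Ndufa2, with a median of 33.5%). Every group lay on a single slide, so this share contains the differences between groups, and slide and group cannot be told apart. In the 9 comparisons of sham with naive or TBI rats whose groups shared a slide, Cox7c passed the filter in 5 and was called in none. By the fold rule of the study's methods Cox7c was lower in TBI than in sham rats of the hippocampus at 1 year, which shared a slide (beside 3.26% of all probes lower).

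**Figure D3:**
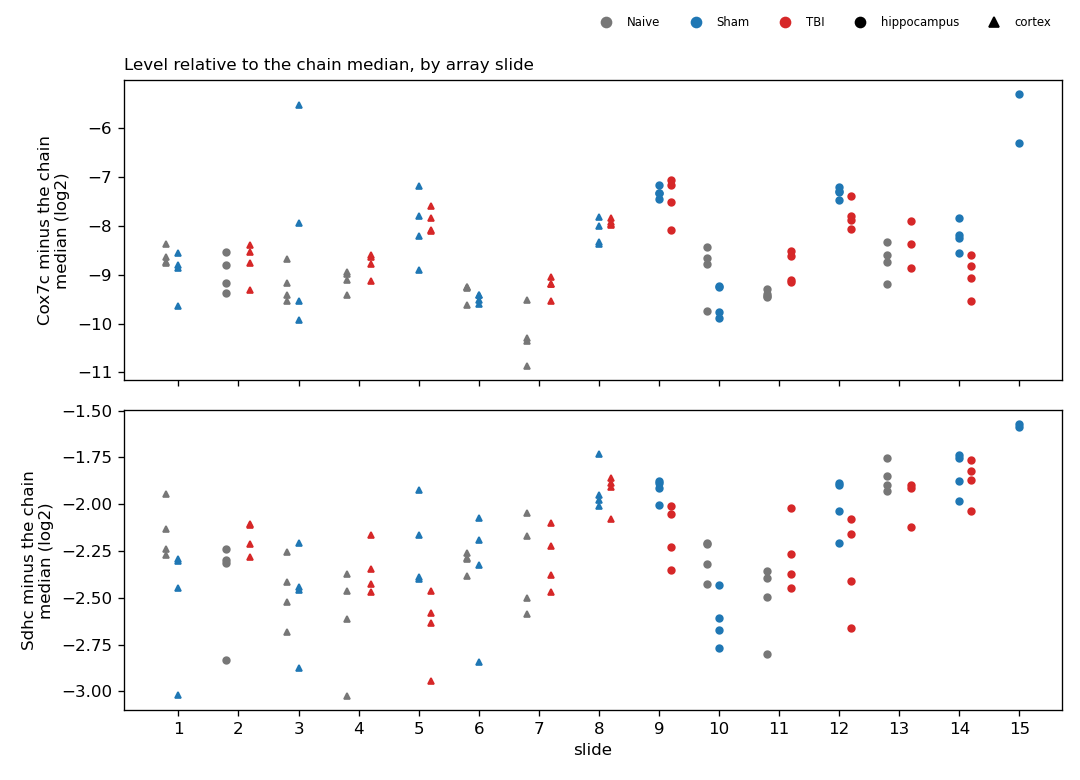
Level of Cox7c and Sdhc minus the chain median (log2, vertical axis) on each array, by slide from 1 to 15 (horizontal axis), with 1 panel a gene. Points are arrays, colours mark naive, sham and TBI rats, circles are hippocampus and triangles cortex. Cox7c shows the wider spread between slides, with mean levels from -1.08 to 2.18 before subtraction.

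For the hippocampus at 6 months naive and sham rats shared a slide. No member of 71 was called under median scaling, beside 0.19% of all probes lower and 3.28% higher, but under 75th percentile scaling 29 fell and 1 rose, beside 10.2% and 8.22% of all probes. The 29 comprised 15 genes of complex I, 2 of II, 3 of III, 3 of IV and 6 of V. The members' median was -0.11 beside 0.10 for all probes under median scaling, and -0.23 beside -0.02 under 75th percentile scaling. The naive chain medians spread from 8.11 to 9.29, so intervals were wide on the median scale. Under 75th percentile scaling the ribosomal protein genes were again called, 70 of 77 lower and 0 higher.

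Relative to the chain median, Atp5f1b, Uqcrc1 and Uqcrfs1 rose in the sham hippocampus at 6 months. Atp5f1b, the catalytic beta subunit of ATP synthase, read 7.97, 7.17, 7.69 and 7.65 in naive and 7.91, 8.24, 8.25 and 7.99 in sham rats. Uqcrc1 read 8.52, 7.42, 8.05 and 7.98 against 8.25, 8.38, 8.35 and 8.31. Uqcrb went the other way, with 8.81, 7.63, 8.34 and 8.35 against 8.04, 7.83, 7.88 and 8.05. All 3 overlapped as read, with naive replicate 2 the lowest for each gene. After subtraction of the chain median Atp5f1b differed by 0.47 (adjusted p = 0.0152), Uqcrc1 by 0.32 (adjusted p = 0.00765), Uqcrfs1, the Rieske protein of complex III, by 0.31 (adjusted p = 0.00695) and Uqcrb by -0.34 (adjusted p = 0.0150). In all 3 rose and 8 fell, beside 14.2% and 4.68% of all probes, and among those that fell were Atp5mg (-0.30), Cox6c (-0.29) and Cox7a2 (-0.27).

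For the hippocampus at 1 year 1 of 72 members fell beside Cox7c, which rose, against 0.723% of all probes lower and 2.57% higher. Uqcrc1 read 8.31, 8.34, 8.32 and 8.41 in naive and 8.11, 8.003, 8.01 and 8.10 in sham rats. The groups did not overlap, and Uqcrc1 fell by 0.29 (SE 0.07, adjusted p = 0.0498) between arrays on different slides. Uqcrc1 was picked as called, so the lack of overlap adds no support. At 3 months the median was 0.10 with 0 of 70 called, beside 0% of all probes.

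In the cortex at 24 hours naive and sham rats shared a slide, and 11 of 72 members fell under median scaling, beside 18.2% of all probes lower and 0.945% higher. Under 75th percentile scaling none did, beside 1.05% of all probes lower and 0.68% higher. The members' median of -0.22 lay near the -0.20 of all probes, and 75th percentile scaling moved them to -0.04 and -0.02. Among those that fell were Ndufa10 (-0.70), Sdhc (-0.62), Ndufv1 (-0.52), Ndufs7 (-0.44), Atp5f1e (-0.44), Cox7a2 (-0.42), Ndufa7 (-0.40), Atp5mc2 (-0.36), Ndufb7 (-0.36) and Ndufa13 (-0.33). Ndufv1, which binds NADH, read 8.95, 8.72, 8.95 and 8.91 in naive and 8.45, 8.25, 8.45 and 8.31 in sham rats (SE 0.10, adjusted p = 0.0093). Sdhc read 6.62, 6.61, 6.58 and 6.52 in naive rats, above all 4 sham values given earlier (SE 0.13, adjusted p = 0.0114). The groups did not overlap in either gene, which adds no support because both were picked as called lower.

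In the cortex at 1 year 2 of 72 members rose, Cox7c among them, and 0 fell, beside 4.25% of all probes higher and 0.258% lower. At 2 weeks, 3 months and 6 months in the cortex 0 of 71 members were called, beside 0%, 0.342% and 0% of all probes. At 3 months the members' median was -0.17 and that of all probes -0.13, and 75th percentile scaling moved them to -0.07 and -0.02. The median at 2 weeks was -0.82 beside -0.51 for all probes, and 0.50 beside 0.42 without replicate 3 of the sham rats (75th percentile scaling -0.53 and 0.08 for the members), so that its sign turned with 1 array.

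**Figure D4:**
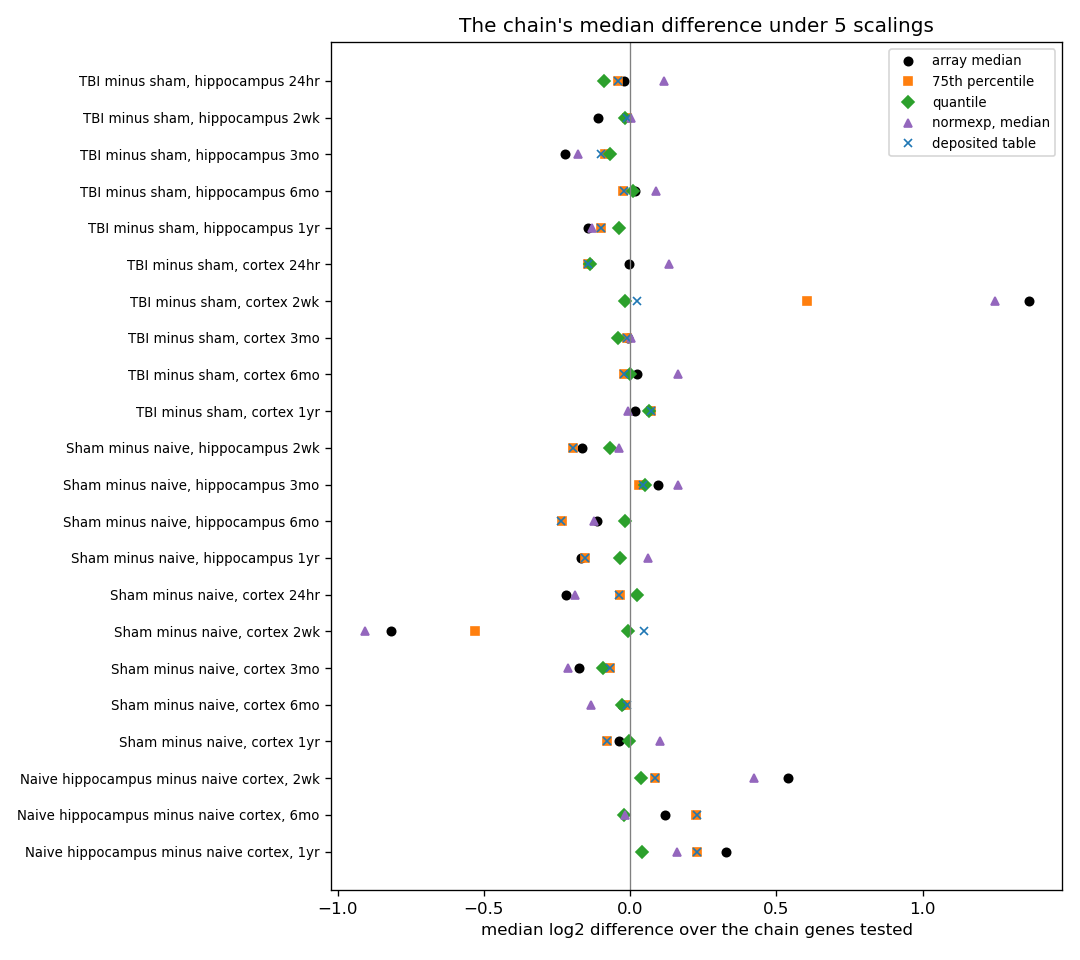
Median difference over the chain members tested (log2, horizontal axis) in the 22 comparisons (vertical axis), under 5 ways of scaling the arrays, each with its own colour and symbol. The ways separate widely in cortex at 2 weeks, where the TBI minus sham median was 1.36 under median and 0.60 under 75th percentile scaling.

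The naive hippocampus was compared with the naive cortex, on the same naive arrays as above, to show which members differ between tissues. Cox6a2 was lower in the hippocampus at each of the 3 intervals with both tissues. At 2 weeks it read 1.96, 1.71, 3.24 and 3.41 in hippocampus and 5.40, 6.04, 5.89 and 4.30 in cortex. At 6 months it read 3.53, 1.92, 3.38 and 2.68 against 6.43, 6.34, 6.32 and 6.22, and at 1 year 2.28, 2.47, 2.90 and 2.80 against 5.56, 6.01, 5.11 and 5.75. The tissues did not overlap at any interval. Cox6a2 was 7.10-fold lower in hippocampus at 2 weeks (log2 difference -2.83, SE 0.41, adjusted p = 7.02e-09), 10.9-fold at 6 months (-3.45, SE 0.30, adjusted p = 5.83e-29) and 7.97-fold at 1 year (-2.99, SE 0.21, adjusted p = 1.23e-05). Under 75th percentile scaling the adjusted p-values were 0.00167, 9.38e-06 and 1.5e-05. In the median-scaled fits at 2 weeks and 6 months the variance was drawn almost wholly from all probes together. The values 7.02e-09 and 5.83e-29 therefore do not measure the spread between these rats.

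Over all groups Cox6a2 ranged from 4.30 to 6.91 (median 6.04) on 59 cortex arrays and from 1.16 to 5.22 (median 2.67) on 36 hippocampus arrays of the same design, and tissue accounted for 87.7% of its variance. On the smaller design it ranged from 0.90 to 4.73 (median 2.42) in 17 hippocampus arrays. At each of the 3 intervals the naive hippocampus and the naive cortex lay on different slides, so that tissue and slide cannot be told apart in these comparisons. Slide 2 held both tissues, with Cox6a2 from 1.71 to 3.41 in the naive hippocampus at 2 weeks and from 5.10 to 6.91 in the TBI cortex at 24 hours. The difference on that slide was not tested. Among the marker lists, all 4 cortex markers were called lower in the naive hippocampus at 6 months and at 1 year and 2 at 2 weeks, while 3, 1 and 3 of 4 hippocampus markers were called higher at 2 weeks, 6 months and 1 year. Cox6b2 overlapped widely, with medians of 5.95 in cortex and 5.90 in hippocampus on the larger design.

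**Figure D5:**
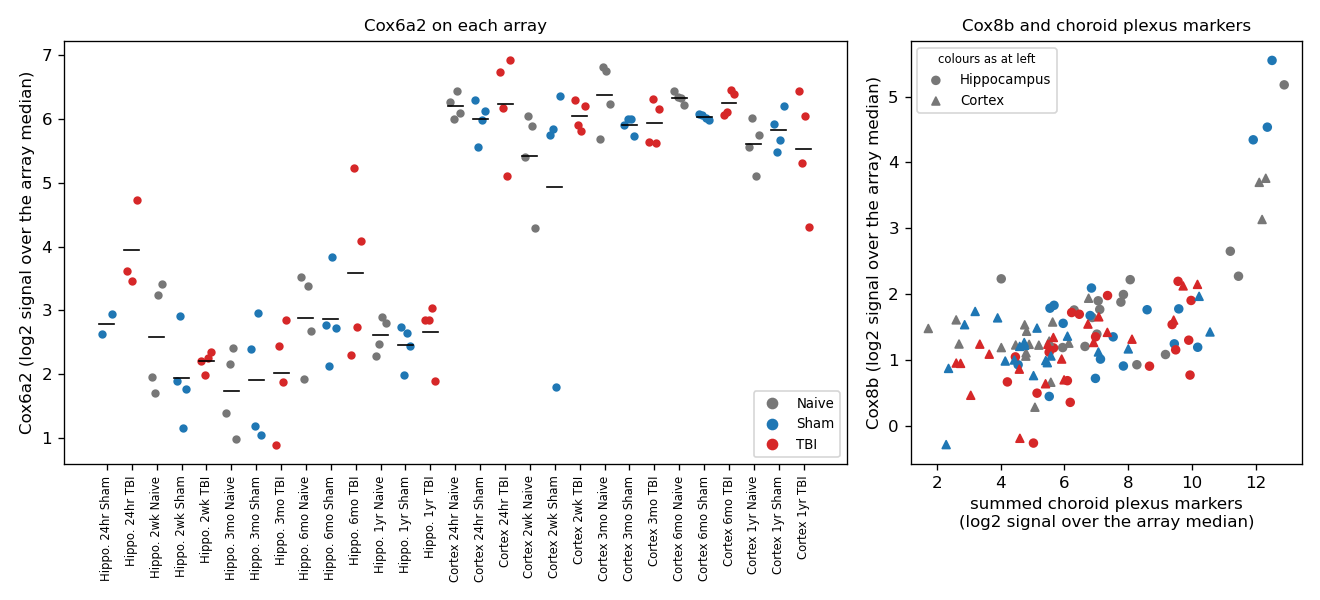
Left, Cox6a2 level (log2, vertical axis) on each array by group, with cortex from 4.30 to 6.91 and the hippocampus of the larger design from 1.16 to 5.22, leaving out cortex sham at 2 weeks, replicate 3. Right, Cox8b level (vertical axis) against the summed level of choroid plexus markers (horizontal axis, both log2) on each array, where the 7 arrays with Cox8b above 3 lie at choroid sums of 11.9 to 12.9.

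Apart from Cox6a2, the difference between tissues depended on the scaling. The members' median difference was 0.54 at 2 weeks, 0.12 at 6 months and 0.33 at 1 year, beside 0.44, -0.07 and 0.13 for all probes. Under 75th percentile scaling it was 0.09, 0.23 and 0.23, beside -0.02, 0.03 and 0.03. At 1 year 36 of 71 members rose in hippocampus over cortex and 1 fell, beside 25.7% of all probes higher and 12% lower, and under 75th percentile scaling 16 rose and 2 fell, beside 19.7% and 17.6%. The 36 comprised 19 genes of complex I, 1 of II, 3 of III, 5 of IV and 8 of V. Those called higher under both scalings included Ndufa7, which read 8.07, 8.27, 8.55 and 8.10 in hippocampus and 7.73, 7.69, 7.72 and 7.63 in cortex (difference 0.56, adjusted p = 0.00627). Ndufb2 (0.55), Ndufa5 (0.55), Ndufb10 (0.50) and Atp5f1e (0.49) were also called under both. Ribosomal protein genes were called in the same direction, 72 of 78 (75th percentile scaling 61 of 78). At 2 weeks 0 members were higher and 1 lower, beside 3.69% of all probes higher and 1.22% lower, and 1 and 2 under 75th percentile scaling, beside 8.3% and 10.6%. At 6 months 0 were higher and 1 lower under median scaling, beside 4.77% and 11.6% of all probes, and 27 and 5 under 75th percentile scaling, beside 21.6% and 18.5%.

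Relative to the chain median, Uqcrc1 and Atp5f1b stood lower in the naive hippocampus than in the naive cortex at 6 months (-0.45, adjusted p = 0.00174, and -0.58, adjusted p = 0.0108) and at 1 year (-0.45, adjusted p = 0.0232, and -0.44, adjusted p = 0.0261). Ndufs3, a core subunit of complex I, did so too (-0.35 at 6 months and -0.34 at 1 year). At 6 months Uqcrfs1 (-0.45) was also lower, and Cox8b (0.60), Ndufa7 (0.36), Ndufa5 (0.33), Ndufa1 (0.32) and Ndufb10 (0.31) were higher. In all 14 members were higher and 7 lower at 6 months, beside 13.8% and 23.7% of all probes. The counts were 0 and 4 at 1 year, beside 6.17% and 24.7%, and 0 and 2 (Cox6a2 and Ndufa10) at 2 weeks, beside 4.84% and 12.8%.

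Cox8b stood out on single arrays. On 7 arrays it read between 3.13 and 5.55, and on the other 106 between -0.29 and 2.65. The 7 arrays had summed choroid plexus markers of 11.9 to 12.9, while the others ran from 1.74 to 11.4 with a median of 5.95. This sum rests mainly on Ttr, with a mean level of 5.98 on the larger design against -2.40 to 0.04 for the other markers. The 7 arrays came from naive cortex and sham hippocampus at 3 months and from naive and sham hippocampus at 1 year. The summed muscle markers of these 7 arrays, 0.28 to 2.46, lay within the range of the others (0.21 to 3.87). In the hippocampus at 3 months Cox8b read 1.77, 4.34, 4.54 and 1.24 in sham and 0.77, 1.54, 1.15 and 1.90 in TBI rats, so that 2 sham rats carry the difference of -1.63. At 1 year 1 naive rat (5.18) and 1 sham rat (5.55) stood apart from the rest of their groups (1.76 to 1.90 and 1.35 to 1.79). The part of the choroid plexus in these values was not tested.

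Members varied unequally once the chain median was subtracted. On the larger design the SD over arrays was largest for Cox6a2 (1.76), Cox7c (0.84), Cox8b (0.75) and Cox8c (0.70), all of complex IV. Sdhc, Ndufa10 and Atp5f1b followed at 0.27 each. The smallest SDs were those of Ndufb7 (0.09), Ndufb4, Atp5po, Atp5mc1 and Sdhd (0.10 each), named after their values were seen.

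Other mitochondrial genes were read from lists for comparison. In TBI against sham, 0 of 7 chain genes outside the name pattern (such as Cycs, cytochrome c) were called in any comparison, nor were any of the 17 measured enzymes of the TCA cycle or the 15 regulators of mitochondrial gene expression. In the hippocampus at 24 hours 1 of 37 assembly factors fell (Coa3, for complex IV, -1.15, adjusted p = 0.00635), as did 1 of 16 genes of glycolysis (Hk1, -1.11, adjusted p = 0.00708) and 1 of 16 carriers and import genes (Vdac2, a channel of the outer membrane, -0.53, adjusted p = 0.0489). Hmox1, the inducible heme oxygenase, rose there (2.34, adjusted p = 0.0218) and at 2 weeks (0.91, adjusted p = 0.0434), where Eno2 of glycolysis fell (-0.33, adjusted p = 0.0371). Of 76 cytosolic ribosomal protein genes 1 rose and 0 fell at 24 hours. All of these counts at 24 hours lie below the 8.02% of all probes called lower and the 5.65% called higher, except for Hmox1, 1 of 12 uncoupling and antioxidant genes.

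Between sham and naive cortex at 24 hours, 5 of 39 assembly factors (Coa7, Uqcc2 and Coa5 leading, -0.69 to -0.46), 5 of 17 enzymes of the TCA cycle (Idh3g -0.59, Pdha1 -0.43 and Idh3a -0.42 leading) and 4 of 17 genes of glycolysis (Aldoc, Eno2 and Pfkm leading) fell together with the 11 chain genes. Of the regulators of mitochondrial gene expression, 2 of 14 fell, Ppargc1b (-0.72) and Polrmt (-0.58), the latter being the mitochondrial RNA polymerase. These values are on the median scale, on which all probes had a median of -0.20 and 18.2% of them were called lower. With 75th percentile scaling, where 1.05% of all probes were lower, 1 enzyme of the TCA cycle fell and 0 genes of the other 3 lists. Between the naive tissues at 1 year, 11 of 39 assembly factors were higher in hippocampus and 1 lower, with Lyrm7 of complex III assembly leading (0.94, adjusted p = 0.000347), and 7 of 17 carriers and import genes were higher, beside 25.7% of all probes higher and 12% lower. On the 75th percentile scale 8 assembly factors were higher and 5 lower, and 6 carriers and import genes were higher, beside 19.7% and 17.6% of all probes.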

How the data were processed

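Total RNA was amplified, labelled with Alexa-555 and hybridised to Agilent 1-colour arrays, which the authors read with Agilent Feature Extraction 11.5.1.1, per the file headers. The deposited scanner tables hold intensities per probe, and gProcessedSignal, already corrected for background by the authors, was used. The deposited series tables hold linear intensities that the authors made in GeneSpring, in which each array's processed signal was divided by a constant near the 75th percentile, although the methods name the median. They were used as an alternative. A flag column that the authors deposited (of other kind than a measurement) gave the probes well above background.

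Here log2 of the processed signal minus the array's median over non-control probes was the main scale, with the 75th percentile beside it. Probes were averaged over spots and named through RefSeq accessions, which gave 21109 of 45598 probes (46.3%) on 96 arrays and 18643 of 30367 (61.4%) on 17 arrays a gene name, and no spot was saturated. A probe entered a test if all arrays of 1 or more compared groups read it well above background. Differences were fitted over the naive, sham and TBI arrays of 1 tissue and interval (naive tissues: both naive groups of an interval; differences between effects: all groups of both tissues at an interval) with lmFit and eBayes of limma 3.58.1 (R 4.3.3), adjusted by Benjamini-Hochberg over all tested probes, two-sided, with 95% intervals. A value relative to the chain is the same fit after each array's chain median was subtracted. The number of arrays limits the precision. The labels call the rats biological replicates.

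Every group lay on 1 of 15 slides. Both groups shared a slide in 5 of 10 comparisons of TBI with sham and in 4 of 9 of sham with naive, and in 0 of 3 of the naive tissues. Genes were named where they belonged to 22 core subunits or the restricted isoforms, ranked among up to 10 called under both scalings, were the highest or lowest of a complex in a comparison of TBI with sham, or were among up to 5 each way called relative to the chain. The other lists gave up to 3 names each way. Of the members, 1 enters the counts and medians but is not reported here. Members and lists were chosen with earlier results of these data known. Same-numbered replicates correlated in every pair (r over 0.1) in 4 of 22 comparisons. There the counts of members called with the block were labelled the same, a label that allows a small change of count. No arrays were identical (highest r 0.993). The fit was tested on simulated data. Alternatives were the scalings, normexp with an offset of 50, the deposited series tables, no filter, a replicate block, all probes of a member, fits of only the groups compared and each replicate left out. Promoter letters were searched with Python 3.11.15, and figures drawn with matplotlib 3.10.9.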

Additional observations from a re-analysis of the deposited data

Results flagged for a closer look

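For each group of 4 rats, the chain median under both scalings and the levels of Cox6a2, Cox6b2, Cox8b and Cox7c were searched for an array whose gap to its nearest neighbour over the group's range exceeded Dixon's 95% critical value. Of 162 groups and measures 14 passed, and chance passes about 1 in 20.

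Cortex sham at 2 weeks, replicate 3, stood apart in 5 measures. Its chain median was 3.16 (others 8.48 to 8.54) and 2.36 under 75th percentile scaling (4.85 to 4.89). Its Cox6a2 read 1.80 (5.74 to 6.35), its Cox6b2 1.30 (5.73 to 6.11) and its Cox8b -0.29 (1.06 to 1.17). Under 75th percentile scaling the chain median of cortex naive at 6 months, replicate 3, was 5.01 (4.95 to 4.96) and that of hippocampus TBI at 3 months, replicate 3, was 4.62 (4.46 to 4.48).

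Cox6b2 read 6.36 in cortex naive at 24 hours, replicate 4 (others 6.12 to 6.14), 4.30 in cortex naive at 2 weeks, replicate 4 (5.56 to 5.81), and 5.30 in cortex TBI at 2 weeks, replicate 2 (5.91 to 6.03). Cox8b read 5.18 in hippocampus naive at 1 year, replicate 3 (1.76 to 1.90), and 5.55 in hippocampus sham at 1 year, replicate 3 (1.35 to 1.79). Cox7c read 0.52 in cortex naive at 24 hours, replicate 1 (-0.08 to 0.01), and -0.89 in cortex TBI at 24 hours, replicate 4 (-0.06 to 0.06).

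The difference of TBI and sham differed between hippocampus and cortex at 24 hours, by a test of the difference itself, for Cox7c (-2.85) and Sdhc (-0.80). Sdhc was not called under 75th percentile scaling, and neither gene was called with normexp. The groups compared all lay on different slides, so that injury and slide cannot be told apart.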

How the results depend on the processing

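Counts are members called. In the hippocampus at 24 hours TBI and sham (3) gave 5 with quantile normalization and 0 with no filter or a replicate block. In the cortex at 24 hours (0) they gave 9 with normexp and 2 with no filter, and at 2 weeks (0) 1 with no filter. Sham and naive hippocampus at 2 weeks (17) gave 33 under 75th percentile scaling, scaling on probes above background and the authors' values, 9 relative to the chain, 5 with quantile normalization and the replicate block, 4 with normexp and with only the groups compared, and 1, higher, with no filter. At 6 months (0) they gave 30 under 75th percentile scaling, 14 by quantile, 31 on probes above background, 11 relative to the chain and 32 by the authors' values. At 1 year (2) they gave 4 with no filter and 1 with the replicate block or only the groups compared. In the cortex at 24 hours (11) they gave 0 under the other scalings and the authors' values, 2 with no filter and 7 with the replicate block, and at 1 year (2) 10 with normexp and 1 with only the groups compared.

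Naive tissues at 2 weeks (1) gave 3 under 75th percentile scaling, on probes above background and by the authors' values, and 2 relative to the chain or with normexp. At 6 months (1, lower) the balance turned to higher with 32 under 75th percentile scaling, 34 on probes above background and by the authors' values and 21 relative to the chain, and they gave 15 by quantile and 5 with normexp. At 1 year (37, mostly higher) it turned to lower with 9 by quantile and 4 relative to the chain, and they gave 18 under 75th percentile scaling, 12 on probes above background, 6 with normexp, 17 by the authors' values and 5 with no filter. The difference between the injury's effects at 24 hours (3) gave 1 under the other scalings, the authors' values, no filter and the replicate block, and 0 with normexp. The cause of these changes was not tested. With all probes of a member the count was labelled the same in 27 of 27 comparisons. That label allows a small change of count, so equal counts are not shown.

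With each replicate left out in turn, TBI and sham gave 0 to 3 in the hippocampus at 24 hours and 0 elsewhere. Sham and naive gave 5 to 10, 0, 0 to 9 and 1 to 4 in the hippocampus at 2 weeks, 3 months, 6 months and 1 year, and 3 to 8, 0, 0 to 1, 0 and 1 to 2 in the cortex from 24 hours to 1 year. Naive tissues gave 1, 1 to 8 and 15 to 43. Naive hippocampus replicate 2 at 6 months, when left out, gave 8, mostly higher, against cortex and 9 against sham. Every single replicate of hippocampus at 2 weeks lowered that count, and 6 of 8 of cortex at 24 hours did so by over 1.5 times. At 1 year the naive tissues gave 15 without cortex replicate 4 and 20 to 23 without hippocampus replicates 2 or 3 or cortex replicates 1 or 3. The difference of effects gave 1 to 4 at 24 hours and 0 later. The slide as a block was not run, because every group lies on a single slide. The dim probes of Cox7c and Uqcrq and groups of 2 to 4 rats limit what could be detected.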
